A study of Mus musculus with 8 samples.

Results

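The 10 genes described here are nuclear genes whose products transcribe, stabilise, polyadenylate or degrade the RNA of mitochondria: Polrmt, Tfam, Tfb2m, Tefm, Tfb1m, Lrpprc, Slirp, Mtpap, Pnpt1 and Supv3l1. They were chosen by function and found by symbol among the 55401 genes that each deposited table lists, with exactly 1 row for each. RNA-seq was made from AML12, an immortalised hepatocyte line from a mouse that carried a transgene for the growth factor TGF-alpha. A group of 4 control dishes was compared with a group of 4 dishes exposed for 1 h to Opti-ELF-WMF, a weak magnetic field pulsed at an extremely low frequency. Its pulses were 4 ms wide, stepped through 1 to 8 Hz again and again, and peaked at 100 mG. Both groups came from 1 cell batch and handled side by side, but the controls sat over an inactive coil in an incubator of their own, so exposure and incubator cannot be told apart. The p-values below measure only the spread between dishes of this 1 batch. None of the 10 genes passed the test across all genes, and no other gene did, the mRNAs that mitochondrial DNA encodes included. Summed, those mRNAs stood at 21.5% less TPM in the exposed dishes, taken from the means of the log2 sums.

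The values are TPM, a measure of abundance in which the reads of a gene are divided by its length and every dish is scaled to the same total. TPM keeps no sequencing depth, so the depth behind each value is unknown and no counting error is given. Between 19386 and 20114 genes lay above 0 in each dish. The hepatocyte genes looked at varied widely in level, with Hnf4a at 180 to 218 TPM and Ttr at 333 to 384 TPM. Alb, the gene of serum albumin, reached only 46.1 to 58.2 TPM. Apoa1, Serpina1b and Afp were lower still, at 3.12 to 5.29, 3.60 to 5.88 and 0.48 to 1.33 TPM. Krt19, a keratin of bile duct cells, stood at 1101 to 1244 TPM in this line, and the groups overlapped. Some hepatocyte genes did differ at an unadjusted p under 0.05 (limma): the keratin genes Krt8 and Krt18 were higher in every exposed dish than in every control dish, with log2 differences of 0.071 and 0.091, and Alb had a difference of -0.15 with overlap. Their part in the results below was not tested. The leukocyte gene Ptprc was at most 0.20 TPM, the endothelial gene Pecam1 at most 0.08 TPM, and Adgre1 of macrophages and Lrat of stellate cells were listed at 0 in every dish. The genes encoded by mitochondrial DNA took 8.69 to 9.42% of all TPM in control dishes and 5.99 to 7.69% in exposed dishes, lowest in exposed dish 2.

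Mitochondrial DNA is transcribed from both strands into long transcripts by a single-subunit RNA polymerase, POLRMT, together with TFAM, which bends and packages the DNA, TFB2M, which opens the promoter, and TEFM, which keeps the polymerase elongating. The long transcripts are cut into mRNAs, rRNAs and tRNAs. LRPPRC with SLIRP holds the mRNAs stable, MTPAP adds their poly(A) tails, and a complex of the nuclease PNPT1 and the helicase SUPV3L1 degrades them. TFB1M, a relative of TFB2M, methylates the small ribosomal RNA. In liver, where mitochondria are abundant, these proteins are needed to make the electron transport chain subunits that the mitochondrial genome encodes. All of them are encoded in the nucleus, and the factors NRF1, GABPA and YY1 are known regulators of such genes.

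The promoters of the 4 transcription genes are shown because their letters hold the binding motifs of NRF1 or GABPA, and that of Supv3l1 because this gene had the smallest p-value of the 10. Each stretch runs from 60 bases before to 30 bases after the RefSeq start on GRCm38.p6, 5′ to 3′ on the strand of the gene, with motif matches in capitals.

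Polrmt, chr10:79746552-79746641, minus strand: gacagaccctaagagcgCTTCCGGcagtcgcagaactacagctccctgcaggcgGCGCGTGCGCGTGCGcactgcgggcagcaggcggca

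Tfam, chr10:71238015-71238104, minus strand: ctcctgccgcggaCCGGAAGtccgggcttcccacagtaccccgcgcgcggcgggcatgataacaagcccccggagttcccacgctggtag

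Tfb2m, chr1:179546247-179546336, minus strand: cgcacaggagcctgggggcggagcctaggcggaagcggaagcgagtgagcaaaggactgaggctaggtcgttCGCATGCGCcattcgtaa

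Tefm, chr11:80142124-80142213, minus strand: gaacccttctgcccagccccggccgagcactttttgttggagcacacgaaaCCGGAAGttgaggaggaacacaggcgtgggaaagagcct

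Supv3l1, chr10:62449709-62449798, minus strand: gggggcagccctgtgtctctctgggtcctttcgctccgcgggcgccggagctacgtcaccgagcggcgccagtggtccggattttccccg

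Motifs were searched on both strands from 250 bases before to 50 bases after the start, as GCGCNTGCG for NRF1, CCGGAAG for GABPA and GCCATNTT for YY1, in 9 of the 10 genes. Mtpap was not searched. Polrmt held 2 overlapping NRF1 matches across its start and 1 GABPA match, Tfb2m held 1 NRF1 match, and Tfam and Tefm held 1 GABPA match each. Slirp held 3 GABPA and 2 YY1 matches. No match to these letters was found in the windows of Tfb1m, Lrpprc, Pnpt1 and Supv3l1. Thus 5 of 9 windows held at least 1 of the 3 motifs, against 35.1% of the 11598 windows of genes tested here and 18.7% of all 32851 windows. Taken singly, NRF1 matched 13.9%, GABPA 18.7% and YY1 8.73% of the windows of tested genes, and 6.31%, 8.86% and 6.05% of all windows. A match is a description of letters and not a site of binding. As mRNAs, Nrf1 stood at 33.5 to 39.3 TPM, Gabpa at 34.0 to 38.5 TPM and Yy1 at 38.8 to 42.0 TPM over the 8 dishes, and none of them separated the groups.

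Differences between the groups were tested with limma on log2(TPM + 1) over the 12122 genes that reached 1 TPM in 4 dishes or more. All 10 genes reached it in every dish. None of the 10 had a Benjamini-Hochberg adjusted p under 0.05, and none of the 12122 genes did (0%), with the smallest adjusted p of any gene at 0.0572. At an unadjusted p under 0.05, 2 of the 10 genes were called, both higher in exposed dishes, namely Supv3l1 and Lrpprc. Over all tested genes the same rule called 15.6%, that is 12% higher and 3.65% lower, so a count of 2 in 10 lies close to the background. These shares follow the scaling of TPM: 1451 genes were called higher and 443 lower as deposited, 646 and 763 after median-of-ratios scaling, and 397 and 973 after rescaling without the mitochondrial genes and their nuclear copies. The differences of the 10 genes, always exposed minus control, had a median of 0.053 on the log2 scale beside 0.026 for all tested genes. Of the 10 differences 7 were positive and 3 negative, or 6 and 4 after that rescaling, under which Mtpap turned negative. Among all genes 7720 were positive and 4402 negative.

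**Figure D1:**
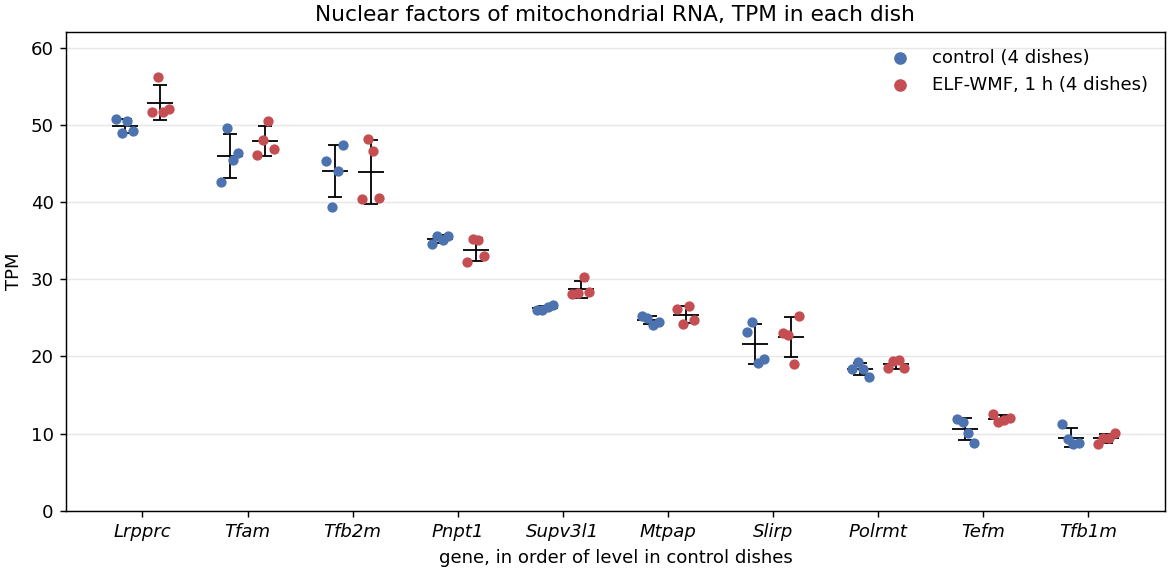
TPM of the 10 genes in each of the 8 dishes, ordered by level in control dishes, with the control group in blue, the exposed group in red, and bars for the mean and SD of 4 dishes. Only in Lrpprc and Supv3l1 did all 4 exposed dishes lie above all 4 control dishes. The order of the means was the same in both groups.

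The levels of the 10 genes, which TPM gives per length, kept their order in both groups. Lrpprc, Tfam and Tfb2m formed the most abundant group, with control means of 49.9, 46.0 and 44.0 TPM, and neighbours within it overlapped between control dishes. Pnpt1 followed at 35.2 TPM, below every control dish of Tfb2m, and Supv3l1 at 26.3 TPM, below every control dish of Pnpt1. Mtpap, at 24.7 TPM, lay just under Supv3l1 without overlap. Mtpap, Slirp and Polrmt again overlapped with their neighbours, at 24.7, 21.6 and 18.4 TPM. Tefm and Tfb1m were least abundant, at 10.6 and 9.45 TPM, and overlapped with each other but not with Polrmt. The polymerase mRNA thus stood below the mRNAs of TFAM and TFB2M. Tfam over Polrmt was 2.51 ± 0.147 (SD, n = 4) in control and 2.52 ± 0.0526 (SD, n = 4) in exposed dishes.

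Polrmt (ENSMUSG00000020329), the gene of the polymerase, lies on chromosome 10 from 79736123 to 79746581 of GRCm38, on the minus strand. It measured 18.36, 19.24, 18.42 and 17.38 TPM in control dishes 1 to 4 and 18.53, 19.46, 19.51 and 18.47 TPM in exposed dishes 1 to 4. The groups overlapped, and the lowest of all was control dish 4. The means were 18.4 ± 0.761 and 19.0 ± 0.570 TPM (SD, n = 4 each), a log2 difference of 0.048 with a standard error of 0.043 and a 95% interval from -0.048 to 0.14 (limma, adjusted p = 0.651). It was 0.0023 after rescaling without mitochondrial genes and copies, and 0.023 without control dish 4.

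Tfam (ENSMUSG00000003923), the gene of the packaging and initiation factor, lies on chromosome 10 from 71225464 to 71238280, on the minus strand. It measured 42.64, 49.60, 45.51 and 46.29 TPM in control dishes and 46.14, 48.10, 50.50 and 46.93 TPM in exposed dishes. Control dishes alone spread over 42.64 to 49.60 TPM, which covered all exposed dishes but 1. The log2 difference was 0.059 with a standard error of 0.048 and a 95% interval from -0.049 to 0.17 (limma, adjusted p = 0.610). It was 0.012 after rescaling without mitochondrial genes and copies, 0.023 without control dish 1, 0.034 without exposed dish 3 and 0.095 without control dish 2.

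Tfb2m (ENSMUSG00000026492), the gene of the promoter-opening factor, lies on chromosome 1 from 179528055 to 179546267, on the minus strand. Its values were 45.33, 39.39, 43.96 and 47.43 TPM in control dishes and 40.33, 48.18, 46.59 and 40.46 TPM in exposed dishes. Each group held dishes near 40 and near 47 TPM, and the means of 44.0 ± 3.41 and 43.9 ± 4.09 TPM (SD, n = 4 each) lay within this spread. The log2 difference was -0.0057 with a 95% interval from -0.17 to 0.16 (limma, adjusted p = 0.983), and -0.053 after rescaling without mitochondrial genes and copies. Leaving out single dishes gave -0.057 (control dish 2) to 0.033 (exposed dish 1). A pseudogene-like copy, Gm1818, matched 1187 bases at 99.3% identity but averaged only 0.377 TPM.

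Tefm (ENSMUSG00000046909), the gene of the elongation factor, lies on chromosome 11 from 80136678 to 80142175, on the minus strand. It measured 11.91, 11.51, 10.11 and 8.78 TPM in control dishes and 12.53, 11.48, 11.73 and 11.99 TPM in exposed dishes. Exposed dishes lay close together, whereas control dishes 3 and 4 were lower and control dishes 1 and 2 stood among the exposed ones. Its difference was the highest of the 10 genes, 0.17 on the log2 scale, with a standard error of 0.084 and a 95% interval from -0.021 to 0.36 (limma, adjusted p = 0.378). Without control dish 4 the difference was 0.089. Without control dish 1 it was 0.22 and without control dish 2 it was 0.21, both then at an unadjusted p under 0.05 (limma), which no other omission of a single dish gave.

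Of the 4 transcription genes, 3 had positive and 1 a negative difference, and none was called at an unadjusted p under 0.05. Tfb1m (ENSMUSG00000036983), the gene of the rRNA methyltransferase, lies on chromosome 17 from 3519256 to 3557781, on the minus strand. It stood at 11.21, 9.25, 8.60 and 8.72 TPM in control dishes and at 8.61, 9.43, 9.44 and 10.04 TPM in exposed dishes. Control dish 1 was the highest of all 8, and exposed dishes 2, 3 and 4 lay above the other control dishes. The log2 difference was -0.0039 with a 95% interval from -0.19 to 0.18 (limma, adjusted p = 0.990). It turned to 0.073 without control dish 1 and to 0.033 without exposed dish 1, and was -0.047 after rescaling without mitochondrial genes and copies. Exons of Tfb1m share 142 bases with Tiam2 on the opposite strand, and stretches of it match many other genes, so reads there could be split.

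The stability genes came next in role. Lrpprc (ENSMUSG00000024120) encodes the RNA-binding protein that keeps mitochondrial mRNAs stable, and lies on chromosome 17 from 84705247 to 84790789, on the minus strand. It measured 50.79, 48.96, 50.49 and 49.25 TPM in control dishes and 51.61, 56.25, 51.67 and 52.01 TPM in exposed dishes. Every exposed dish lay above every control dish, and exposed dish 2 was highest by a wide gap. The means were 49.9 ± 0.902 and 52.9 ± 2.25 TPM (SD, n = 4 each), a log2 difference of 0.082 with a standard error of 0.035 and a 95% interval from 0.0035 to 0.16 (limma, adjusted p = 0.301). It was no longer called at an unadjusted p under 0.05 when exposed dish 2 was left out (difference 0.053), exposed dish 4 (0.090), or control dish 2 (0.074), 3 (0.088) or 4 (0.076). After median-of-ratios scaling the difference was 0.052, and after rescaling without mitochondrial genes and copies 0.036, neither of them called at that level.

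Slirp (ENSMUSG00000021040), the gene of the partner protein of LRPPRC, lies on chromosome 12 from 87443896 to 87452206, on the plus strand. It stood at 23.11, 24.40, 19.15 and 19.71 TPM in control dishes and 23.05, 22.80, 19.01 and 25.23 TPM in exposed dishes. Both groups held dishes near 19 and near 23 TPM, and the groups overlapped. Its log2 difference of 0.058 carried the largest standard error of the 10 genes, 0.096, with a 95% interval from -0.16 to 0.27 (limma, adjusted p = 0.825). It was 0.013 after rescaling without mitochondrial genes and copies. Without single dishes it ran from 0.0037 (exposed dish 4) and 0.0056 (control dish 3) to 0.12 (control dish 2) and 0.13 (exposed dish 3). Slirp over Lrpprc was 0.433 ± 0.0539 in control and 0.426 ± 0.0507 in exposed dishes (SD, n = 4 each), with overlap. Exons of Slirp share 2914 bases with Snw1 on the opposite strand, a gene at 54.8 to 59.2 TPM, so the Slirp value is uncertain where the counting did not separate strands.

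Mtpap (ENSMUSG00000024234), the gene of the mitochondrial poly(A) polymerase, lies on chromosome 18 from 4375592 to 4397330, on the plus strand. It measured 25.18, 24.98, 24.13 and 24.51 TPM in control dishes and 26.09, 24.20, 26.56 and 24.75 TPM in exposed dishes. Exposed dishes 1 and 3 lay above all control dishes and the other two among them. The log2 difference was 0.038 with a standard error of 0.040 and a 95% interval from -0.051 to 0.13 (limma, adjusted p = 0.702). Median-of-ratios scaling gave 0.0087, and rescaling without mitochondrial genes and copies gave -0.0079. Without exposed dish 2 it was 0.060, and without exposed dishes 1 or 3 it was 0.025 or 0.017.

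The decay genes Pnpt1 and Supv3l1 encode partners of the same complex, yet their differences had opposite signs. Pnpt1 (ENSMUSG00000020464), the gene of the polynucleotide phosphorylase, lies on chromosome 11 from 29130744 to 29161828, on the plus strand. It measured 34.58, 35.56, 35.11 and 35.56 TPM in control dishes and 32.18, 35.18, 35.06 and 32.95 TPM in exposed dishes. Exposed dishes 1 and 4 lay below all control dishes, while 2 and 3 lay among them. The log2 difference was -0.056 with a standard error of 0.037 and a 95% interval from -0.14 to 0.027 (limma, adjusted p = 0.517). After median-of-ratios scaling it was -0.086, and after rescaling without mitochondrial genes and copies -0.10, both at an unadjusted p under 0.05 but with limma adjusted p = 0.333 and adjusted p = 0.347. Over all alternatives the difference of Pnpt1 stayed negative, and it was nearest to 0 without exposed dish 1, at -0.033.

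Supv3l1 (ENSMUSG00000020079), the gene of the helicase that unwinds RNA for PNPT1, lies on chromosome 10 from 62429209 to 62449738, on the minus strand. It measured 25.97, 26.07, 26.34 and 26.68 TPM in control dishes and 28.04, 28.15, 30.35 and 28.30 TPM in exposed dishes. All exposed dishes lay above all control dishes, with exposed dish 3 highest, and the control dishes differed by less than 1 TPM. The means were 26.3 ± 0.318 and 28.7 ± 1.10 TPM (SD, n = 4 each), 8.92% higher on the log2(TPM + 1) scale. The log2 difference was 0.12 with a standard error of 0.036 and a 95% interval from 0.042 to 0.20 (limma, adjusted p = 0.165). Leaving out each dish in turn gave 0.097 to 0.13, the lowest without exposed dish 3, each at an unadjusted p under 0.05. After rescaling without mitochondrial genes and copies the difference was 0.078 and no longer called at that level.

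Within each dish, Supv3l1 over Pnpt1 does not depend on how TPM was scaled. This ratio, looked at after the values were seen, was 0.7510, 0.7331, 0.7502 and 0.7503 in control dishes and 0.8713, 0.8002, 0.8657 and 0.8589 in exposed dishes. All exposed dishes lay above all control dishes, with means of 0.746 ± 0.00870 and 0.849 ± 0.0330 (SD, n = 4 each). Tfb2m over Polrmt overlapped between the groups, at 2.41 ± 0.281 and 2.31 ± 0.148.

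Counted over the 10 genes, all exposed dishes lay above all control dishes in 2 genes and below them in 0. Over all tested genes this held for 8.01% in the higher and 1.86% in the lower direction, 9.87% in all.

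The question that the comparison with mitochondrial transcripts addresses is whether these factors differed where the mRNAs they act on did. The 13 mRNAs of mitochondrial DNA summed to 85786, 85564, 92790 and 88064 TPM in control dishes and to 68446, 59122, 75803 and 74099 TPM in exposed dishes. The groups did not overlap, with all exposed dishes lower and exposed dish 2 lowest. The means were 88051 ± 3355 and 69368 ± 7519 TPM (SD, n = 4 each). The means of the log2 sums differed by -0.35, or 21.5% less. The exact two-sided permutation test over 70 assignments gave p = 0.0286, the smallest that 4 dishes against 4 allow. In bulk polyadenylated RNA, fewer cells with these transcripts, fewer transcripts per cell and less capture by poly(A) tail cannot be told apart. Reads of these genes can also match 11 nuclear copies, which summed to 51420 ± 1639 TPM in control and 41509 ± 3727 TPM in exposed dishes (SD, n = 4 each). With the copies added to the sum, the difference was -0.34 (exact permutation p = 0.0286, n = 4 each). The largest part of the sum was mt-Atp8, with listed means of 37359 TPM in control and 30057 TPM in exposed dishes. Its groups overlapped. mt-Atp6 had means of only 819 TPM in control and 622 TPM in exposed dishes. How reads were divided among mitochondrial genes and copies was not tested, so the mt-Atp8 value may not measure its abundance. The sum used for the ratios further on includes mt-Atp8. Without mt-Atp8 the sum differed by -0.37 (exact permutation p = 0.0286, n = 4 each).

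All 13 mt-mRNAs had a negative difference, with a median of -0.37. The differences ran from -0.27 for mt-Co2, a subunit of complex IV, to -0.64 for mt-Nd4l, a subunit of complex I. The 95% intervals of these genes, from -0.47 to -0.060 and from -0.95 to -0.34, overlapped. Whether single mt-mRNAs differed from each other was not tested. In 9 of the 13 the groups did not overlap, all 13 had an unadjusted p under 0.05, and the smallest adjusted p was 0.122 (limma). mt-Nd6, the sole mRNA made from the light-strand promoter, differed by -0.41 with a 95% interval from -0.62 to -0.20. Its value may hold reads of the opposite strand, because the strand setting of the counting is not known. mt-Rnr1 and mt-Rnr2, the ribosomal RNAs that a library of polyadenylated RNA holds only in part, differed by -0.42 and -0.43. With exposed dish 2 left out, mt-Nd1, mt-Nd2, mt-Co1 and mt-Cytb each had an adjusted p = 0.0465 (limma), with differences of -0.25, -0.31, -0.30 and -0.29. No other omission of a single dish, and no other setting, gave any mt-mRNA an adjusted p under 0.05. Exposed dish 2 was the dish with the lowest mt-mRNA sum.

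Set against this, the 95% intervals of all 10 nuclear genes stayed above -0.35, taken here as a fixed value without its own spread. Their lowest lower bound was -0.19, for Tfb1m, and their highest upper bound 0.36, for Tefm. Intervals of single mt-mRNAs reached up to -0.060, for mt-Co2, and so could overlap those of nuclear genes such as Tfb1m. A lower bound above -0.35 was found in 89.8% of all tested genes, so it does not set the 10 genes apart. In 8 of the 10 genes the interval held 0. The standard errors ran from 0.035 for Lrpprc to 0.096 for Slirp on the log2 scale. Summed, the 10 genes stood at 286 ± 3.59 TPM in control and 295 ± 7.60 TPM in exposed dishes (SD, n = 4 each), and the groups overlapped.

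**Figure D2:**
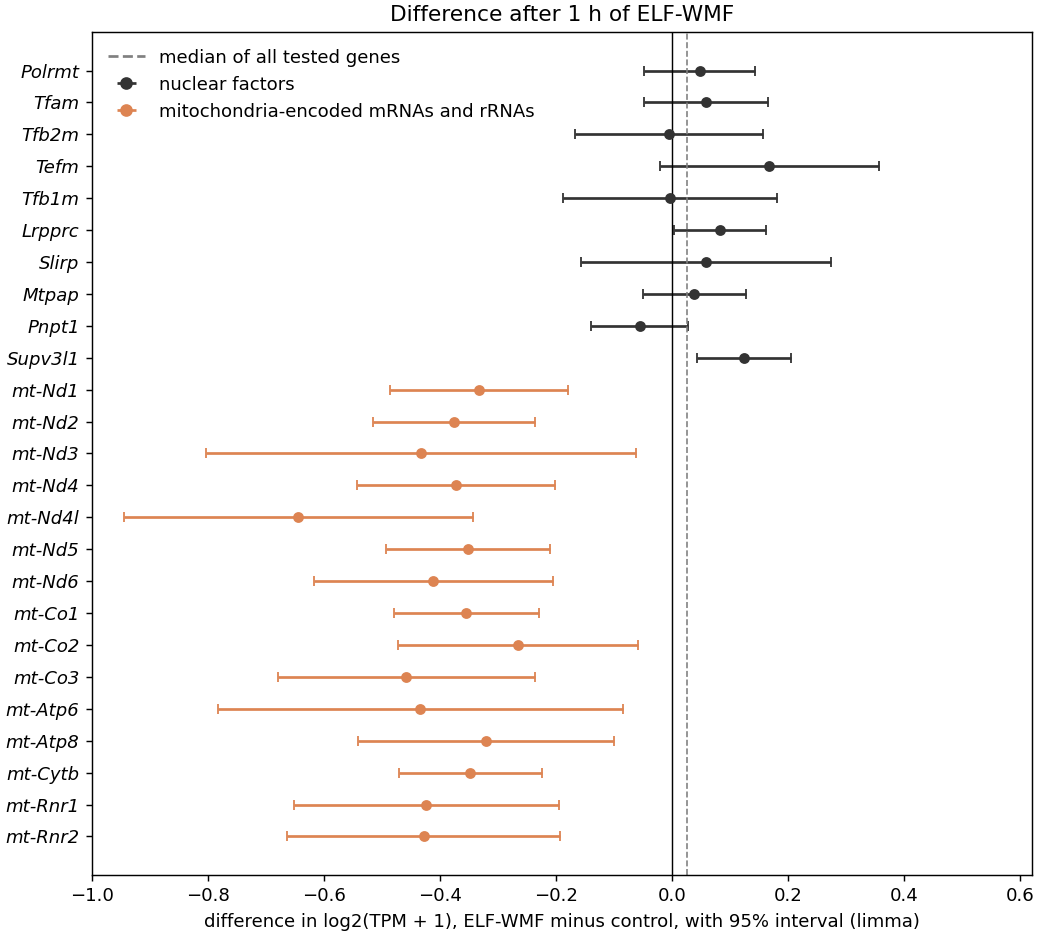
Differences in log2(TPM + 1), exposed minus control, with 95% intervals from limma (4 dishes per group), for the 10 nuclear genes in black and the mRNAs and rRNAs of mitochondrial DNA in orange. The black points lie between -0.056 and 0.17, around the dashed median of all tested genes at 0.026, and the orange points lie between -0.64 and -0.27.

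As a ratio within each dish, 8 of the 10 genes stood higher per mt-mRNA in every exposed dish than in every control dish, and Tfb1m and Slirp overlapped. The ratio of any gene to the mt-mRNAs carries their fall, and 69.7% of all tested genes showed the same separation. Supv3l1 measured 3.03, 3.05, 2.84 and 3.03 TPM per 10000 TPM of mt-mRNA in control dishes and 4.10, 4.76, 4.00 and 3.82 in exposed dishes. Its means were 2.99 ± 0.0983 and 4.17 ± 0.411 (SD, n = 4 each), and the means of the log2 ratios gave 1.39-fold. Lrpprc rested at 5.92, 5.72, 5.44 and 5.59 in control dishes and 7.54, 9.51, 6.82 and 7.02 in exposed dishes, 1.35-fold. For both genes exposed dish 2, the dish with the fewest mt-mRNAs, gave the highest ratio. By the same measure the 10 genes ran from 1.22-fold for Pnpt1 to 1.45-fold for Tefm. With the nuclear copies added to the mt-mRNAs, 7 of the 10 genes separated.

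**Figure D3:**
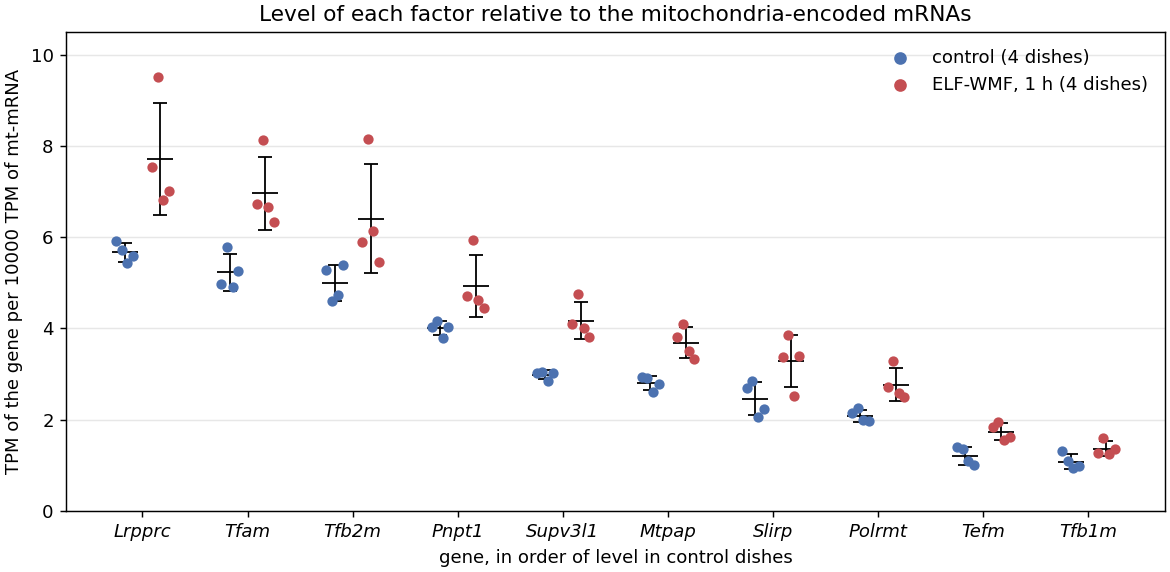
TPM of each of the 10 genes per 10000 TPM of summed mt-mRNA in the same dish, with control dishes in blue, exposed dishes in red, and bars for the mean and SD of 4 dishes. The red points lie above the blue ones in 8 genes and overlap them in Tfb1m and Slirp, and the highest red point of each gene is exposed dish 2.

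A wider list of 67 genes that act on mitochondrial DNA or RNA was read in the same fit, of which 65 passed the filter. Their differences had a median of 0.023 on the log2 scale, 45 positive and 20 negative. None had an adjusted p under 0.05 (limma), while 4 were higher and 1 lower at an unadjusted p under 0.05, a lower share in each direction than the 12% and 3.65% of all tested genes. Fastkd3, of a family that processes and stabilises mitochondrial mRNAs, measured 18.45, 15.62, 15.41 and 16.53 TPM in control dishes and 21.35, 20.82, 22.32 and 17.64 TPM in exposed dishes. Exposed dish 4 lay among the control dishes (difference 0.30, standard error 0.078, limma adjusted p = 0.140). Rnaseh1, which removes RNA from RNA-DNA hybrids, differed by 0.22 (limma adjusted p = 0.192), and Grsf1, an RNA-binding protein of the mitochondrial RNA granule, by 0.079 (adjusted p = 0.238). Noa1, a GTPase of ribosome assembly, differed by 0.14 (limma adjusted p = 0.218) with every exposed dish above every control dish. Fastk, another member of the Fastkd3 family, differed by -0.18 (limma adjusted p = 0.160), at 57.57 to 63.33 TPM in control and 48.33 to 57.65 TPM in exposed dishes.

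By role, 1 of 13 termination and nucleoid factors was called higher at an unadjusted p under 0.05, as were 2 of 14 processing factors and 1 of 9 granule and ribosome assembly factors, and 1 of the 14 processing factors was called lower. None of 5 further decay factors, 17 modification enzymes and 7 regulators was called by limma at that level. Among the decay factors, Rexo2, which clears the short RNAs that PNPT1 leaves, stood at 181.5 to 191.2 TPM in control and 188.1 to 197.6 TPM in exposed dishes (difference 0.059, limma adjusted p = 0.321). The coactivator genes Ppargc1a and Ppargc1b, known for driving mitochondrial biogenesis, did not pass the filter, at 0.54 to 1.07 TPM and 0.62 to 0.97 TPM.

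**Figure D4:**
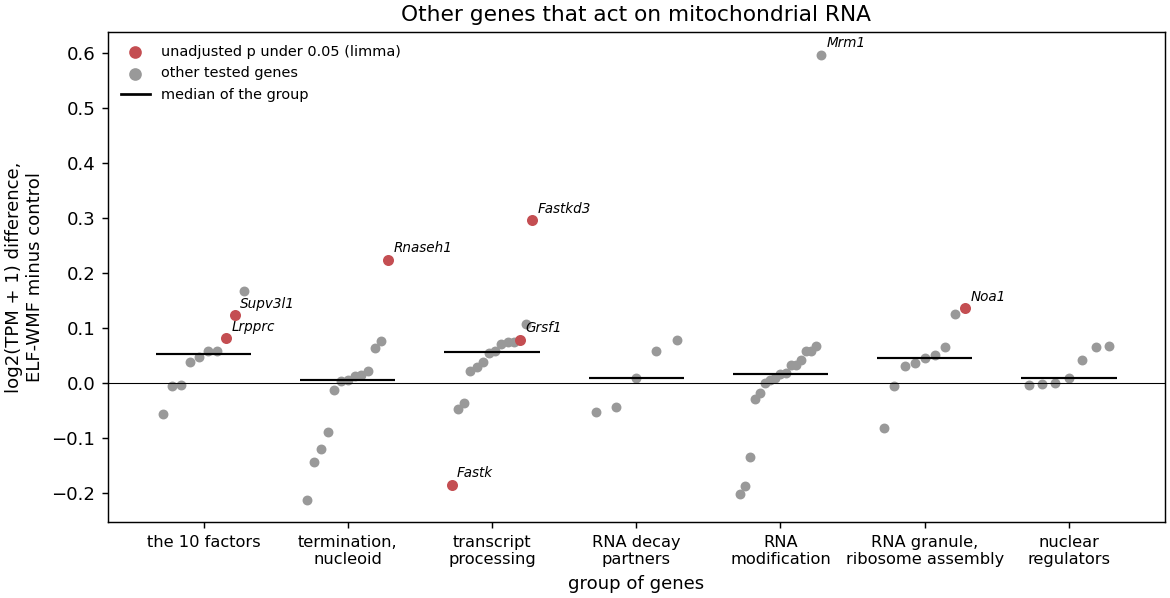
Differences in log2(TPM + 1), exposed minus control, of the 10 genes and of the 65 tested genes of the wider list, grouped by role, with a bar at the median of each group. Red points have an unadjusted p under 0.05 by limma. Most points lie between -0.2 and 0.2, and Mrm1 at 0.60 comes from 1 exposed dish.

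For each of the 10 genes, the tested gene with the most similar values over the 8 dishes was looked up by Pearson's r of log2(TPM + 1), as a description in which the points share libraries and the best of 12122 genes is taken. These were Ist1 for Polrmt (r = 0.983), Ripk2 for Tfam (0.951), Zfp608 for Tfb2m (0.966), Pdcd2 for Tefm (0.974) and Rtn4 for Tfb1m (0.944). For the others they were Vat1 for Lrpprc (0.966), Rab2b for Slirp (0.962), Xrcc4 for Mtpap (0.950), Lrch1 for Pnpt1 (0.957) and Fignl1 for Supv3l1 (0.979). No gene of the set was the nearest of another.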

How the data were processed

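The authors sequenced polyadenylated RNA (TruSeq Stranded mRNA, NovaSeq, 150 bp paired-end reads) of 4 control and 4 exposed dishes and deposited 1 table of TPM values per dish. The submitters' processing notes list Trimmomatic 0.39, STAR 2.7.4a, RSEM 1.3.3 and mm10. The annotation release and the strand setting are not given in the sources used here. Groups and replicate numbers came from the sample labels. The 12122 genes that reached 1 TPM in 4 or more of the 8 dishes were compared on log2(TPM + 1), pseudocount 1, with limma 3.58.1 (lmFit, eBayes with trend) in R 4.3.3, two-sided, with Benjamini-Hochberg adjustment over all tested genes. The script was tested on simulated data. Sums of mt-mRNAs were compared by an exact permutation test. Genes counted as nuclear copies matched a mitochondrial gene at 95% identity or more over 80% or more of the transcript (blastn 2.17.0). Gene positions came from GENCODE M21 on GRCm38, and promoters from RefSeq on GRCm38.p6. The files hold no read counts, so depth is unknown and count tests were not run. Named genes were all 10 factors, the 13 mt-mRNAs as a range, the wider-list genes with the smallest unadjusted p-values under 0.05 (up to 5 in each direction), and the nearest gene by r. Rexo2, Mrm1 and the ratios between pairs of the 10 genes were chosen after their values were seen. The 10 genes, the lists and the tests were chosen with earlier results of these data known. Another pseudocount, other filters, 3 scalings of TPM, another variance prior, a replicate block and the omission of single dishes served as alternatives. Adding the nuclear copies to the sum, leaving mt-Atp8 out of it, and the block with median-of-ratios scaling were added after seeing the data.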

Additional observations from a re-analysis of the deposited data

Results flagged for a closer look

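In each group of 4 dishes, the value farthest from its neighbour was compared with the whole range of the group. Of 178 groups tested over the 10 genes, the mitochondrial genes and the wider list, 10 had a dish set apart in this way, and chance alone gives about 1 in 20, or 8.9. Among the 10 genes, Lrpprc stood at 56.25 TPM in exposed dish 2 against 51.61 to 52.01 TPM in the other exposed dishes, and Supv3l1 at 30.35 TPM in exposed dish 3 against 28.04 to 28.30 TPM. In both, the remaining exposed dishes still lay above all control dishes. Among the mitochondrial genes, mt-Co2 stood at 516.39 TPM in exposed dish 3 against 617.82 to 622.43 TPM.

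In the wider list, Mrm1, an rRNA methyltransferase, reached 32.91 TPM in exposed dish 3 against 6.13 to 6.79 TPM in the other exposed dishes. The neighbouring genes Dhrs11, Ggnbp2 and Pigw stood at 24.85, 67.87 and 14.53 TPM in that dish. All other dishes held 25.04 to 26.61, 59.75 to 69.1 and 12.29 to 14.18 TPM. Exposed dish 3 was thus the lowest for Dhrs11 and the highest for Pigw. Ptcd3 stood at 101.93 TPM in exposed dish 3 against 98.23 to 98.38 TPM. In control dishes, Mterf1b stood at 5.01 TPM in dish 3 against 3.95 to 4.04 TPM, Ptcd2 at 39.4 TPM in dish 2 against 35.8 to 36.25 TPM, and Mrm3 at 12.34 TPM in dish 4 against 10.23 to 10.42 TPM. Mtg1 stood at 28.36 TPM in control dish 1 against 23.83 to 24.43 TPM, and Gabpa at 37.53 TPM in control dish 4 against 34 to 34.6 TPM.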

How the results depend on the processing

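Under the 3 other scalings of TPM and with the nuclear copies added, the difference of the mt-mRNA sum kept its sign and exact p = 0.0286, at -0.40 to -0.34 (n = 4 each). No setting gave any of the 10 genes an adjusted p under 0.05. The count of all genes with an adjusted p under 0.05 was 0 as reported and 1, a single gene named 1110028F11Rik, with a TPM of at least 1 required in every sample, with upper-quartile scaling, with median-of-ratios scaling, with rescaling without mitochondrial genes and copies, and with eBayes without trend. The count of the 10 genes with an unadjusted p under 0.05 was 2 as reported and 1 with upper-quartile scaling, with that rescaling and with eBayes without trend. With the rescaling the 1 gene was Pnpt1, lower, in place of Supv3l1 and Lrpprc, the median difference of the 10 genes was 0.0071, and Mtpap reversed to -0.0079. With median-of-ratios scaling, alone or with the block, the count was 2, made up of Supv3l1, higher, and Pnpt1, lower. The cause was not tested. Same-numbered dishes did not deviate together (correlations of -0.042 to 0.026, beside -0.15 to 0.16 for dishes of different number). The labels do not say whether the numbers pair dishes, and these correlations cannot settle it. With the replicate number as a block, 1 of the 10 genes (Supv3l1) had an unadjusted p under 0.05, and the mt-mRNA difference of -0.35 had an exact sign-flip p = 0.125 (n = 4 pairs), the smallest that test allows. Leaving out each dish in turn gave 0 to 6 genes with an adjusted p under 0.05 and 1491 to 1962 with an unadjusted p under 0.05, of which 1 to 3 of the 10. Groups then did not overlap in 1500 to 1918 genes and in 2 to 3 of the 10, 8 to 9 of the 10 separated per mt-mRNA, the median was 0.032 to 0.072 and the mt-mRNA difference -0.39 to -0.28. Tfb2m ran from -0.057 to 0.033, positive without control dish 1 or 4 or exposed dish 1 or 4, and Tfb1m from -0.042 to 0.073, positive without control or exposed dish 1. TPM keeps no depth, so counting error could not be weighed.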
